A study of Mus musculus with 4 samples.

Results

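The Toll-like receptors and their shared adaptor Myd88 were measured in lamina propria mononuclear cells, which are isolated from the connective tissue that underlies the intestinal epithelium, after CD4 T cells had been transferred into mice. The 10 genes were taken by name, Tlr1, Tlr2, Tlr3, Tlr4, Tlr5, Tlr6, Tlr7, Tlr8, Tlr13 and Myd88, from a table of 48526 gene identifiers, and all 10 were found and passed the filter on low values, which left 13528 genes to test. In 2 samples, called DKO, the transferred CD4 cells lacked Hobit and Blimp (double knockout), and the labels record mild signs of colitis. In the other 2 samples, called WT, the transferred CD4 cells were wild type, and the labels record pronounced signs of colitis. Genotype therefore refers to the transferred cells, while the RNA came from all cells of the preparation, and genotype and severity of colitis cannot be told apart. The sources used here do not state the recipients' strain, age and sex or the way the knockout was made. The values are rlog, a log2 expression value that pulls each gene towards its mean, most where reads are few. The depth of the samples is unknown.

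Toll-like receptors are membrane proteins of innate immune cells that bind conserved microbial molecules. At the cell surface Tlr1, Tlr2, Tlr4, Tlr5 and Tlr6 bind lipoproteins, lipopolysaccharide and flagellin, while in endosomes Tlr3, Tlr7, Tlr8 and Tlr13 bind RNA. All except Tlr3 signal through Myd88, which recruits Irak kinases and leads to NF-kappaB and inflammatory gene expression. In the gut these receptors are known for sensing the microbiota, both in phagocytes and in epithelial and stromal cells.

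Tlr2 fell in the DKO samples, and none of the other 9 genes passed the test. The differences ran from -0.54 for Tlr2 to 0.28 for Tlr3 on the log2 scale, and 9 of 10 were below 0, where 55.3% of all tested genes were. In limma with Benjamini-Hochberg adjustment over all tested genes, 1 of 10 members was called, against 14.8% of all tested genes (9.92% higher and 4.85% lower in DKO), a share near that background. The members called lower numbered 4 without DKO replicate 1 and 3 without WT replicate 2. At an unadjusted p under 0.05 the members numbered 5, Tlr1, Tlr2, Tlr4 and Tlr13 lower and Tlr3 higher, against 26.4% of all genes (12.1% lower and 14.4% higher). The DKO and WT samples did not overlap in 7 of 10 members, 6 lower and 1 higher in DKO, against 55.3% of all genes (30.3% lower and 25.0% higher). The median difference was -0.19 over the members and -0.02 over all tested genes. The 10 genes were chosen with earlier results of these data known, so these counts describe the set alone.

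**Figure D1:**
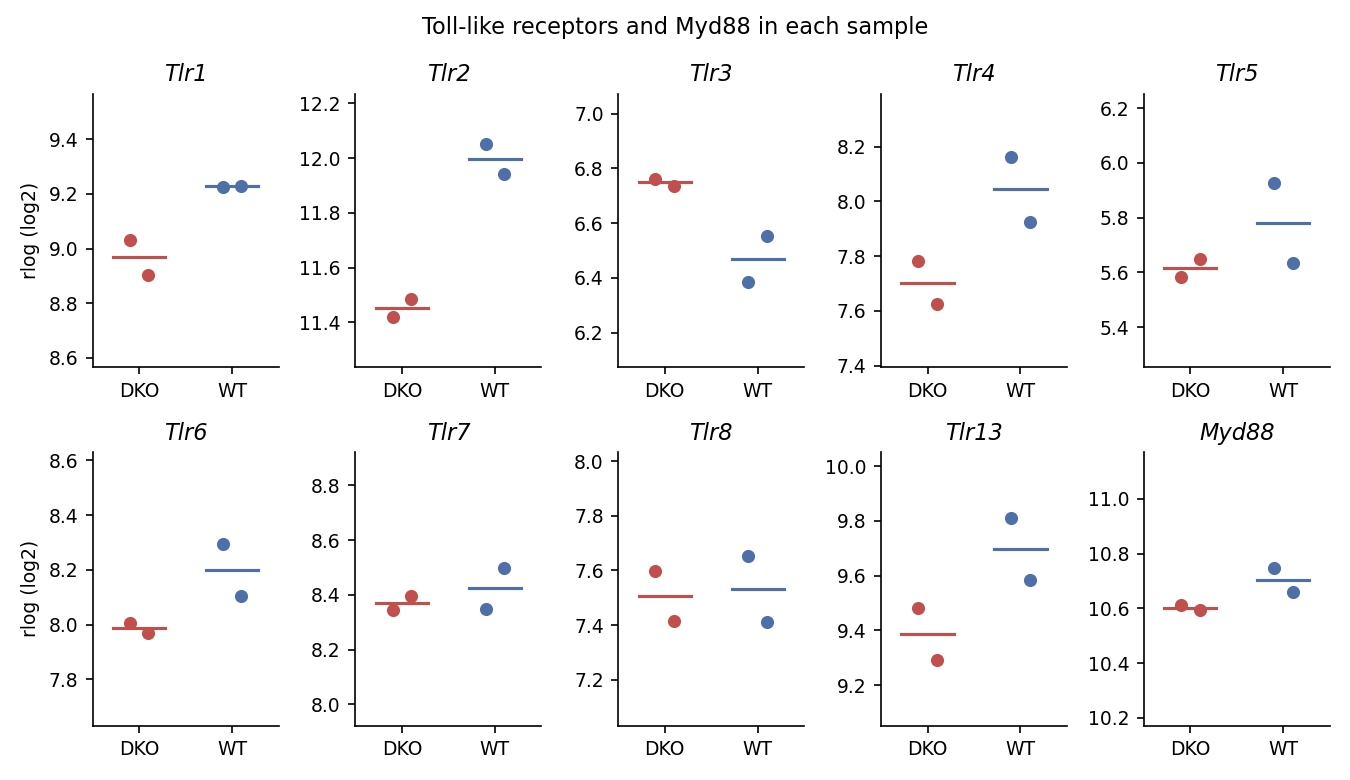
Rlog value (log2, vertical axes, each spanning the same width) of each gene in the 2 DKO samples (red, left) and the 2 WT samples (blue, right), with bars at the group means. The DKO points of Tlr2 lie at 11.42 and 11.48, below both WT points at 12.05 and 11.94, and those of Tlr3 lie above both WT points.

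Tlr2 (ENSMUSG00000027995, GRCm38 chromosome 3, 83836272 to 83841767, minus strand) encodes the receptor for bacterial lipoproteins. It stood at 11.42 and 11.48 rlog in the DKO samples and at 12.05 and 11.94 in the WT samples. Both DKO values lay below both WT values, and the gap between the groups was larger than the gap between the replicates of either group. The means were 11.45 ± 0.0454 in DKO and 12.00 ± 0.0782 in WT (SD, n = 2 each), a difference of -0.54 on the log2 scale (SE 0.0832, limma adjusted p = 0.000997), or 0.685 of the WT level. The difference lay between -0.60 and -0.49 without any 1 of the 4 samples and passed in each of these fits. With no filter on low values it had an adjusted p = 0.0668. In bulk RNA, fewer cells of a type and less RNA per cell cannot be told apart.

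The promoter of Tlr2, the gene that passed, is given here from RefSeq (build GRCm38.p6, chr3:83841559-83841858, minus strand), from 250 bases before to 50 bases after the RefSeq start site. Capitals mark matches on either strand to the kappaB motif, which NF-kappaB proteins bind, and to GGGCGG, the GC box bound by Sp1.
Tlr2: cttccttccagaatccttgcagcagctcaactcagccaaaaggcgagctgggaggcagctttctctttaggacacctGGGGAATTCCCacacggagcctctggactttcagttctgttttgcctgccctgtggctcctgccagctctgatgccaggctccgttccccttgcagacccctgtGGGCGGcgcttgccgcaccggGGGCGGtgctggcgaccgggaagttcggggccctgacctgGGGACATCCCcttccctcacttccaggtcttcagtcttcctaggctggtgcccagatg
The kappaB motif occurred in 2 places, at -173 to -163 and at -8 to 1 from the start site counted as 0, with matches that overlapped each other within each place, and GGGCGG occurred at -69 and -48. Of 32851 RefSeq promoter windows of this length, 8.46% held the kappaB motif and 35.7% held GGGCGG on either strand. A window was at hand for 8 of the 10 genes (10 windows), and the kappaB motif was matched in those of Tlr2 and Tlr3. Tlr4 and Tlr7 were not matched to a window. The windows follow RefSeq start sites, which can differ from the gene spans given here, taken from GENCODE. These matches describe the letters of the windows and do not show binding.

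Tlr1 and Tlr6 encode the receptors that pair with Tlr2, for triacylated and diacylated lipoproteins. Tlr1 (chromosome 5, 64924679 to 64933563) stood at 9.03 and 8.90 in DKO and at 9.22 and 9.23 in WT. The groups did not overlap, but the difference was -0.26 with SE 0.0864 and did not pass in limma (adjusted p = 0.0724), whereas it passed in the fit without DKO replicate 1 (-0.32, adjusted p = 0.0276) and in none of the other fits without 1 sample (adjusted p = 0.18 to 0.301). Tlr6 (chromosome 5, 64952031 to 64960097) stood at 8.01 and 7.97 in DKO and at 8.29 and 8.11 in WT. Its difference of -0.21 (SE 0.102, adjusted p = 0.215 in limma) did not pass, though the groups did not overlap. The pair are neighbours on the same strand, 18.5 kb apart, and share sequence. Of the 50-base stretches in the annotated transcripts of Tlr1, 13.6% also occur in those of Tlr6, and 12.3% of the Tlr6 stretches occur in Tlr1. The sources used here do not say how reads from such stretches were counted, so the separate values of this pair are uncertain to that extent.

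Tlr2 lay further above its partners in WT than in DKO, which restates its larger fall and is no separate result. Per kilobase of exon, Tlr2 exceeded Tlr1 by 2.54 and 2.73 on the log2 scale in the DKO samples and by 2.98 and 2.86 in the WT samples. It exceeded Tlr6 by 3.72 and 3.82 in DKO and by 4.06 and 4.14 in WT. Neither pair of groups overlapped, but with 2 samples against 2 the exact permutation test cannot go below a two-sided p = 0.333, which both gaps gave. The gap between Tlr1 and Tlr6 was 1.18 and 1.09 in DKO and 1.09 and 1.28 in WT, where the groups overlapped. Tlr2 also exceeded Tlr4 per kilobase by 4.52 and 4.74 in DKO and by 4.77 and 4.90 in WT, without overlap. The pattern was thus not particular to the partners.

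Tlr4 (chromosome 4, 66827584 to 66930284) encodes the lipopolysaccharide receptor. It stood at 7.78 and 7.63 in DKO and at 8.16 and 7.93 in WT, with no overlap. Its difference of -0.34 (SE 0.113, adjusted p = 0.0711 in limma) did not pass. It passed without DKO replicate 1 (-0.42, adjusted p = 0.0227), without WT replicate 2 (-0.46, adjusted p = 0.0477) and with a robust variance estimate (adjusted p = 0.0441). The difference of Tlr4 was smaller and did not pass without WT replicate 1 (-0.22, adjusted p = 0.44) or without DKO replicate 2 (-0.26, adjusted p = 0.149). Tlr5 (chromosome 1, 182954788 to 182976044), the flagellin receptor, stood at 5.58 and 5.65 in DKO and at 5.92 and 5.64 in WT. WT replicate 2 lay within the range of the DKO samples, and the difference was -0.17 (SE 0.127, adjusted p = 0.461 in limma), or -0.02 without WT replicate 1 and -0.33 with quantile normalization (adjusted p = 0.135).

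Among the RNA sensors Tlr13 was lower in both DKO samples without passing, Tlr7 and Tlr8 overlapped between the groups, and Tlr3 was higher in both DKO samples without passing. Tlr13 (chromosome X, 106143204 to 106160493), which binds bacterial ribosomal RNA and has no human counterpart, stood at 9.48 and 9.29 in DKO and at 9.81 and 9.58 in WT. The difference of -0.31 (SE 0.101, adjusted p = 0.0665 in limma) passed without DKO replicate 1 (-0.41, adjusted p = 0.00559), without WT replicate 2 (-0.42, adjusted p = 0.0332) and with a robust variance estimate (adjusted p = 0.0413). Tlr13 was at -0.20 without WT replicate 1 (adjusted p = 0.425) and at -0.22 without DKO replicate 2 (adjusted p = 0.145). Tlr7 (chromosome X, 167304929 to 167330558), a receptor for single-stranded RNA, stood at 8.35 and 8.39 in DKO and at 8.35 and 8.50 in WT. Its difference was -0.05, with a 95% interval from -0.26 to 0.16. Its neighbour Tlr8 (chromosome X, 167242696 to 167264329), 40.6 kb away, stood at 7.60 and 7.42 in DKO and at 7.65 and 7.41 in WT. Its difference was -0.03, with a 95% interval from -0.29 to 0.24, so a change of the size seen for Tlr2 lay outside the intervals of both Tlr7 and Tlr8.

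Tlr3 (chromosome 8, 45395665 to 45411080), the receptor for double-stranded RNA, was the 1 gene of the set with a difference above 0. It stood at 6.76 and 6.74 in DKO and at 6.39 and 6.55 in WT. The groups did not overlap, and the difference was 0.28 (SE 0.113, adjusted p = 0.137 in limma). It stayed above 0 without any 1 sample, from 0.20 to 0.36, and did not pass in any of these fits. With quantile normalization it was 0.16 (adjusted p = 0.414). An antisense gene, Gm45542, overlaps exons of Tlr3 and was listed at 0 in all 4 samples. The RefSeq promoter window of Tlr3 (GRCm38.p6, chr8:45410331-45410630, minus strand) is shown because its gene differed in sign from the rest while it shares the kappaB motif with that of Tlr2. Capitals mark the kappaB motif and GGGCGG.
Tlr3: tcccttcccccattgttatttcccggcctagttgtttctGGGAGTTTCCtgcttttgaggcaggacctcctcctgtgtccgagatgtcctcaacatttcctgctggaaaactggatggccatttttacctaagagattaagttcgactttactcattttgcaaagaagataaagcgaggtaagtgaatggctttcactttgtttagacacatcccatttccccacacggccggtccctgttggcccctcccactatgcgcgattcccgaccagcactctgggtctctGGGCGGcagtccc
The kappaB motif lay at -211 to -202 from the start site. This window lies wholly inside the span of Tlr3 given above, so RefSeq and GENCODE place the start differently.

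Myd88 (ENSMUSG00000032508, chromosome 9, 119335934 to 119341411), the adaptor downstream of every receptor in the set except Tlr3, stood at 10.61 and 10.59 in DKO and at 10.75 and 10.66 in WT. Both DKO values were below both WT values, yet the difference of -0.10 (SE 0.0782, adjusted p = 0.469 in limma) did not pass. Its 95% interval ran from -0.27 to 0.07. Per kilobase, Tlr2 exceeded Myd88 by 0.58 and 0.66 in DKO and by 1.08 and 1.06 in WT, without overlap (exact permutation p = 0.333). That gap too restates the larger fall of Tlr2. The exons of Myd88 overlap those of Acaa1a, a gene of peroxisomal fat oxidation on the opposite strand, which stood at 9.93 and 10.01 in DKO and at 10.15 and 10.18 in WT (-0.19, adjusted p = 0.137 in limma). The libraries were stranded, but the sources used here do not say whether strand was used in counting, so reads of the overlap cannot be assigned with certainty. The RefSeq promoter window of Myd88 (GRCm38.p6, chr9:119339969-119340268, minus strand) is shown as that of the shared adaptor, with capitals at GGGCGG and at the response element motif, GAAA repeated after a gap of any 2 bases, of the kind that interferon regulatory factors bind.
Myd88: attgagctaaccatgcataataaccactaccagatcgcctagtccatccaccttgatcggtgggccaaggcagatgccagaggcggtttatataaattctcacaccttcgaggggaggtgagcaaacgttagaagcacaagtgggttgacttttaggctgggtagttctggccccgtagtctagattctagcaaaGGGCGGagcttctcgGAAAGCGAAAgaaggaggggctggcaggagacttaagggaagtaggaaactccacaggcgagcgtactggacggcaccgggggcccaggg
It held GAAAGCGAAA at -40 to -31 from the start site and no match to the kappaB motif. The window of Myd88 lies wholly inside the span of the gene given above and inside that of Acaa1a. RefSeq and GENCODE thus place the start of Myd88 differently. Of all windows, 3.44% held this motif on either strand, and among those of the 10 genes Myd88 and Tlr6 did.

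**Figure D2:**
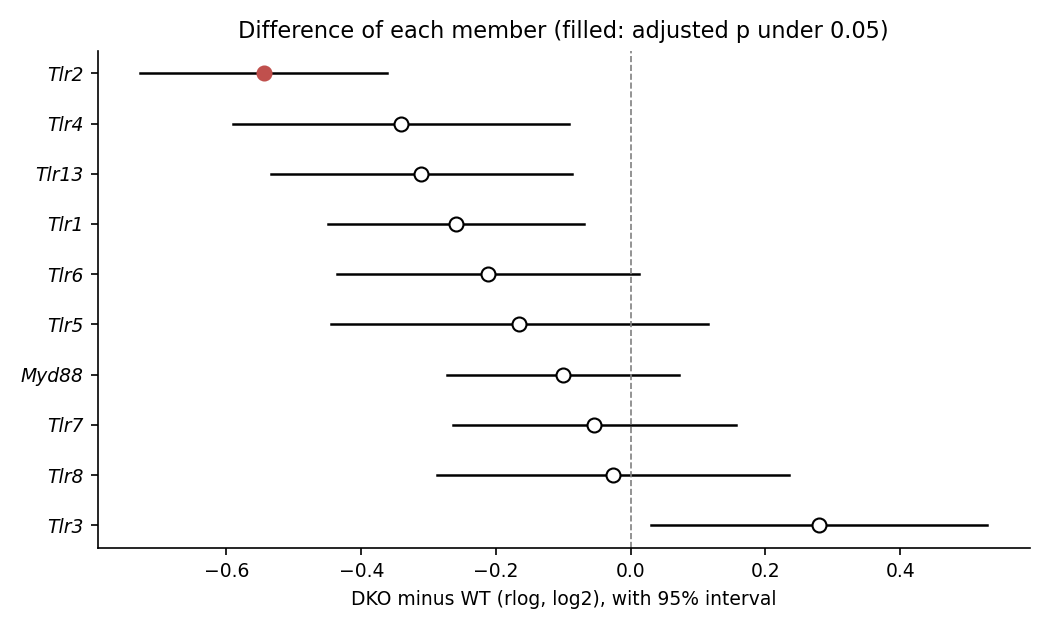
Difference between the groups (DKO minus WT on the log2 scale, horizontal axis) for each of the 10 genes, with the 95% interval of the moderated fit. The filled point, Tlr2 at -0.54, is the gene with an adjusted p under 0.05, and Tlr3 at 0.28 is the point to the right of 0.

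In level, the set was led by Tlr2. When rlog was set against exonic length (rlog minus the log2 of kilobases), Tlr2 lay between 9.83 and 10.46 over the 4 samples, followed by Myd88 at 9.23 to 9.38. Tlr13 (7.19 to 7.71) and Tlr1 (7.16 to 7.49) came next and did not differ beyond their spread. Tlr7 (6.32 to 6.47) and Tlr6 (6.07 to 6.40) overlapped too, as did Tlr8 (5.57 to 5.81) and Tlr4 (5.15 to 5.69), although Tlr8 was above Tlr4 in all 4 samples. Tlr3 (4.00 to 4.38) and Tlr5 (3.32 to 3.66) closed the order, each apart from its neighbours. Between Tlr2 and Tlr5 the mean gap per kilobase was 6.70 on the log2 scale, a fold of 104. Exonic length counts every annotated exon, so levels per kilobase are approximate.

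**Figure D3:**
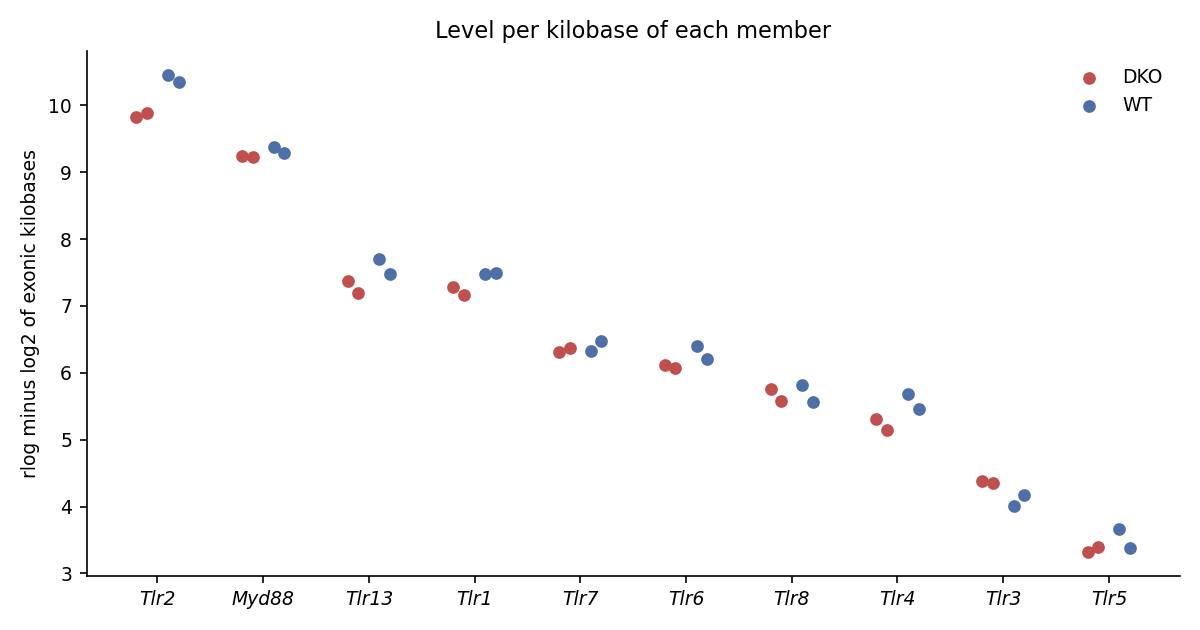
Level of each gene per kilobase (rlog minus the log2 of exonic kilobases, vertical axis) in DKO samples (red) and WT samples (blue), ordered by the mean over the 4 samples. Tlr2 and Myd88 stand above 9 in every sample, and Tlr5 stands lowest at 3.32 to 3.66.

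The remaining mouse receptors of the family, Tlr9 (a sensor of unmethylated DNA), Tlr11 and Tlr12 (sensors of protozoan profilin), were tested as well. At 6.91 and 7.08 in DKO and at 7.35 and 6.96 in WT, Tlr9 overlapped between the groups (-0.16, adjusted p = 0.504 in limma). Tlr12 stood at 7.78 and 7.97 in DKO and at 7.88 and 7.99 in WT, and Tlr11 at 4.13 and 3.95 in DKO and at 4.14 and 3.95 in WT. In limma 0 of these 3 passed, also at an unadjusted p under 0.05.

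Genes that deliver ligands to the receptors went in both directions. For comparison, 9.92% of all tested genes rose and 4.85% fell. Of 6 co-receptors and delivery proteins 2 rose and 1 fell (median -0.04), while 2 fell without DKO replicate 1. Cd14, which hands lipopolysaccharide to Tlr4 and also assists Tlr2, stood at 13.90 and 14.38 in DKO and at 14.91 and 14.75 in WT and fell by 0.69 on the log2 scale (SE 0.156, adjusted p = 0.0117). The call was lost without WT replicate 1 (-0.61, adjusted p = 0.0612) and with quantile normalization (-0.42, adjusted p = 0.126), and the difference was -0.45 without DKO replicate 1. Lbp, the lipopolysaccharide-binding protein, rose by 0.60 (8.82 and 9.18 in DKO, 8.40 and 8.39 in WT, adjusted p = 0.00399 in limma). Cd36, a scavenger receptor that assists the Tlr2 and Tlr6 pair and is also made by endothelium and fat cells, rose by 0.71 (8.77 ± 0.0413 in DKO, 8.06 ± 0.0819 in WT, adjusted p = 0.000388). Ly96, whose product binds lipopolysaccharide on Tlr4, stood at 6.11 and 5.90 in DKO and at 6.14 and 5.97 in WT, and Cd180 and its partner Ly86, an atypical receptor complex, had differences of -0.03 and -0.24 that did not pass (adjusted p = 0.895 and 0.108 in limma).

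Of 8 genes of receptor trafficking and processing 2 fell and 0 rose, with 3 at an unadjusted p under 0.05 (median -0.16). Among all tested genes 4.85% fell, 9.92% rose and 26.4% had an unadjusted p under 0.05. Unc93b1, the chaperone that carries the endosomal receptors to their compartment, stood at 11.46 and 11.67 in DKO and at 11.97 and 11.94 in WT (-0.40, adjusted p = 0.0124 in limma). Ctss, a lysosomal protease, fell by 0.50 (adjusted p = 0.00973). Both calls were lost without WT replicate 1 (adjusted p = 0.069 for Unc93b1 and 0.0614 for Ctss) and without WT replicate 2 (adjusted p = 0.0534 and 0.0866), and that of Ctss with quantile normalization (adjusted p = 0.0621).

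The intracellular relay showed few differences. The shares to set beside its counts are those of all tested genes. Of these 4.85% fell, 9.92% rose and 26.4% had an unadjusted p under 0.05. In limma 0 of 17 kinases and ubiquitin enzymes passed, also at an unadjusted p under 0.05, and their differences lay between -0.15 (Irak2) and 0.13 (Ripk1). Irak4, the kinase recruited first, stood at 7.77 and 7.92 in DKO and at 7.97 and 7.92 in WT, and Traf6, the ubiquitin ligase after it, at 10.50 and 10.48 in DKO and at 10.66 and 10.58 in WT. Of 4 tested adaptors besides Myd88 0 passed, also at an unadjusted p under 0.05, with Tirap at -0.00, Ticam1, the adaptor of Tlr3, at -0.16 and Ticam2 at -0.28. Sarm1, the fifth gene of that list, was under the filter. Irf5, a transcription factor that Myd88 activates, fell by 0.32 (adjusted p = 0.0226 in limma), while Irf3 (0.05) and Irf7 (0.01) did not pass. The Irf5 call was lost without DKO replicate 1, WT replicate 1 or WT replicate 2 (adjusted p = 0.0533, 0.191 and 0.0526), without the variance trend (adjusted p = 0.0565) and with quantile normalization (adjusted p = 0.0506). Of 8 inhibitors 1 fell and 0 rose, while 3 fell without DKO replicate 2. Irak3, the Irak family member that restrains the pathway in macrophages, stood at 9.06 and 9.26 in DKO and at 9.87 and 9.48 in WT (-0.52, adjusted p = 0.0155 in limma), and it was at -0.32 without WT replicate 1 (adjusted p = 0.136). Of 6 interleukin receptors that also use Myd88, such as Il1r1 (-0.06) and Il18r1 (0.10), 0 passed in limma, and 3 had an unadjusted p under 0.05. In this list 2 rose without DKO replicate 2, 1 rose without WT replicate 2 and 1 fell without DKO replicate 1.

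Proteins reported as endogenous ligands of Tlr2 or Tlr4 went in both directions. Of 6 genes 3 rose and 2 fell, where 9.92% and 4.85% of all tested genes did. These genes were picked with earlier results of these data known, so the count describes them alone. The neutrophil and monocyte proteins S100a8 and S100a9 fell, at -1.43 and -1.34 (adjusted p = 0.000156 and 0.000317 in limma). The matrix proteins of stromal cells Bgn, Tnc and Vcan rose by 0.97, 0.96 and 0.69 (adjusted p = 3.7e-05, 0.000746 and 0.0013). Hmgb1, a nuclear protein released by dying cells, was at -0.11 and did not pass.

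Genes that the receptors induce in macrophages were mostly lower. Of 15 such genes 9 fell and 1 rose, with a median of -0.45. Over all tested genes 4.85% fell and 9.92% rose, with a median of -0.02. The list was chosen with earlier results of these data known, so its count describes these genes alone. Saa3, an acute-phase protein, fell by 1.03 (adjusted p = 9.7e-05 in limma), the scavenger receptor Marco by 1.16 (adjusted p = 0.00246, and 0.17 with a robust variance estimate), while the cytokine Il1a fell by 0.57 (adjusted p = 0.00382). The neutrophil attractant Cxcl2 fell by 0.63 and Ptgs2, the inducible cyclooxygenase, by 0.62 (adjusted p = 0.00406 and 0.00602), and both calls were lost without WT replicate 2 (adjusted p = 0.0646 and 0.0831). With quantile normalization Cxcl2 was at -0.34 (adjusted p = 0.0458). Il12b, a cytokine subunit, was the member that rose, at 10.63 and 10.56 in DKO and at 9.68 and 10.15 in WT (0.68, adjusted p = 0.00354 in limma), and at 0.45 without WT replicate 1. Without WT replicate 2 the falls in this list numbered 4. These genes have other inducers as well.

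**Figure D4:**
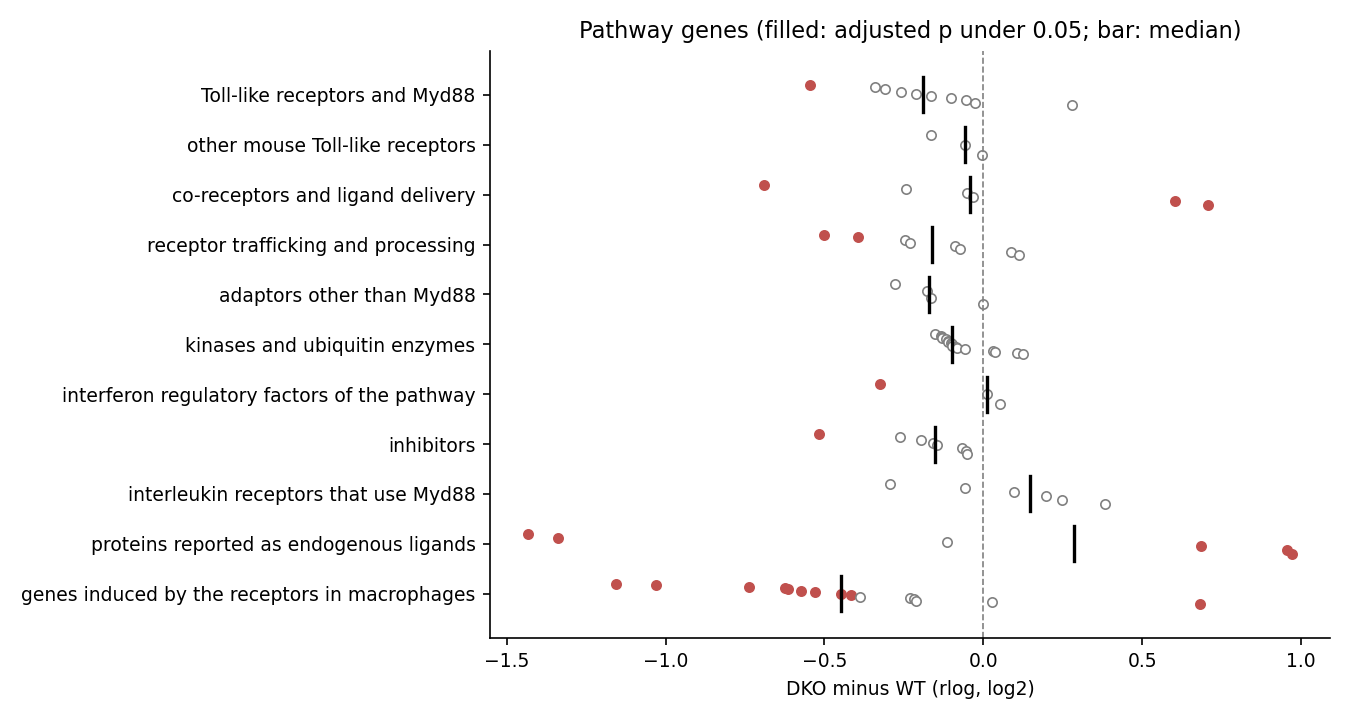
Difference between the groups (DKO minus WT on the log2 scale, horizontal axis) of each gene in the set and in 10 lists of its pathway, with filled points for an adjusted p under 0.05 and a bar at each list's median. The 17 kinases and ubiquitin enzymes lie between -0.15 and 0.13, while the induced genes have their median at -0.45.

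Markers of several cell types, from lists also chosen with earlier results of these data known, differed between the groups. For comparison, 4.85% of all tested genes fell and 9.92% rose. All 10 neutrophil markers fell, with the smallest p for Lcn2 (-1.25) and Ltf (-2.22), and the log2 of their summed level was 12.79 to 12.91 in DKO and 14.18 to 14.34 in WT. Of 5 monocyte markers 3 fell, with the smallest p for Chil3 (-1.50) and Ly6c2 (-0.85) (summed level 11.60 to 11.87 in DKO, 12.32 to 12.38 in WT). Of 8 markers of resident macrophages 5 fell, with C1qb at -0.50 and C1qc at -0.49 (13.47 to 13.67 in DKO, 14.01 to 14.06 in WT). All 5 fibroblast markers rose (15.29 to 15.55 in DKO, 14.52 to 14.58 in WT), as did all 5 endothelial markers (12.11 to 12.20 in DKO, 11.15 to 11.34 in WT) and 3 of 4 mast cell markers (11.94 to 12.16 in DKO, 10.91 to 11.14 in WT). Receptors of the set are known in phagocytes and in stromal cells alike, and no member was assigned to a cell type. The part of these cell types in the differences of the receptors was not tested.

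Other marker lists moved less. Among all tested genes 26.4% had an unadjusted p under 0.05. In limma 0 of 6 T cell markers passed (2 at an unadjusted p under 0.05; 14.33 to 14.50 in DKO, 14.52 to 14.57 in WT), and so did 0 of 5 epithelial markers (1 unadjusted), which were present at 13.24 to 13.34 in DKO and 13.24 to 13.35 in WT. Of 6 markers of conventional dendritic cells Zbtb46 rose (0.30, adjusted p = 0.0453 in limma), a call lost without DKO replicate 2, WT replicate 1 or WT replicate 2 (adjusted p = 0.115, 0.103 and 0.295), without the variance trend (adjusted p = 0.0683) and with quantile normalization (adjusted p = 0.0512). Of 3 tested markers of plasmacytoid dendritic cells, which use Tlr7, Siglech fell (-0.78, adjusted p = 0.0135 in limma). Siglech was at -0.44 without DKO replicate 2 and had an adjusted p = 0.0523 under a robust variance estimate. The other 2 tested markers did not pass (0.03 and -0.08). The summed level of this list overlapped between the groups (8.42 to 8.70 in DKO, 8.45 to 9.07 in WT). The B cell marker Pax5 was listed at 0 in all 4 samples, and B cells are another cell type known to use Tlr7 and Tlr9. Cd79b was the 1 B cell marker tested (0.05, adjusted p = 0.85), and the 1 plasma cell marker tested, Derl3, was at 0.09 (adjusted p = 0.728).

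**Figure D5:**
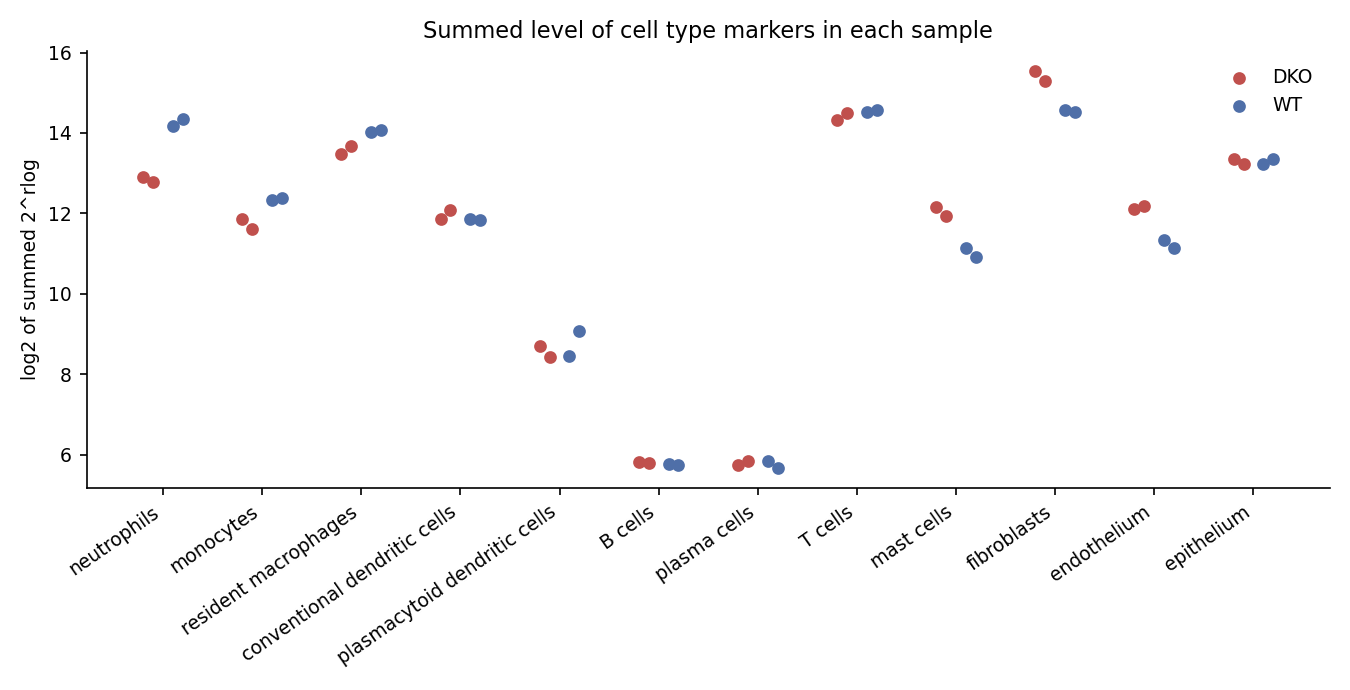
Log2 of the summed linear level (2 to the power of rlog) of each cell type's markers (vertical axis, which does not start at 0) in DKO samples (red) and WT samples (blue). The DKO points lie below the WT points for neutrophils, monocytes, resident macrophages and T cells. They lie above them for mast cells, fibroblasts, endothelium, conventional dendritic cells and B cells. The nearest points of the groups lie close together for T cells, conventional dendritic cells and B cells.

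The genes nearest to the 3 members with the smallest p were found by the root mean square distance between profiles over the 4 samples, each centred on its mean. For Tlr2 these were Ms4a6d (distance 0.00961), Hdc (0.0106) and Clec4e (0.0233), whose differences were -0.54, -0.56 and -0.56. Ms4a6d stood at 10.46 and 10.51 in DKO and at 11.07 and 10.98 in WT. For Tlr13 they were Hist1h1e (0.0145), Tlr4 (0.0202) and Hist1h1d (0.0258), and for Tlr4 they were Cers6 (0.0187), Tlr13 (0.0202) and Hist1h1e (0.0255). Tlr4 and Tlr13 thus stood in each other's list of nearest genes. The search covered tested genes with an established symbol and left out clone and predicted names. Because the search picks genes with matching profiles, the likeness of their differences follows from it and is no separate result. The distances rest on 4 samples and describe these samples alone.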

How the data were processed

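Stranded mRNA libraries of lamina propria mononuclear cells were sequenced, per the labels' protocols, in 2 DKO and 2 WT samples. Replicates were numbered in accession order, and the numbers pair no samples. The labels name biological replicates without naming animals, so whether the spread behind each p-value is that between animals is not stated.

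The values are log2 values (rlog of DESeq2) deposited by the authors, per the table's name and the submitters' processing notes, which also list STAR 2.5.4a, featureCounts from Subread 1.5.2, BWA 0.7.14-r1136, cutadapt 1.9.1, bcl2fastq 2.17.1.14 and the build GRCm38. Their parameters and the annotation are not stated there. Shrinkage understates the changes of low genes such as Tlr5. The table has 2 columns of no labelled sample, which were not used but may have entered the shrinkage. No counts were analysed, so depth and intervals from counts cannot be given.

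Of 48526 identifiers 48144 were matched to GENCODE M21 (GRCm38), which gave symbols, positions and exonic lengths. A minimum of 4 was set on the mean rlog, and the 13528 genes above it were tested with limma 3.58.1 in R 4.3.3: group as the only term, empirical Bayes with a variance trend (8.9 prior and 2 residual degrees of freedom), two-sided, Benjamini-Hochberg, threshold 0.05. Differences are DKO minus WT. "Rose" and "fell" mean an adjusted p under 0.05 in that fit. Tables and figures used Python 3.11.15, pandas 2.3.3 and matplotlib 3.10.9. The fit was tested on simulated data. The 10 members, 10 pathway lists (77 genes) and 12 marker lists (66 genes) were chosen with earlier results of these data known. Named were all members, the called genes of each pathway list (at most 6, by p), partners of members whatever their values, and up to 2 genes of a marker list. A marker that this would name is not reported here. Alternatives were no filter, a mean of at least 6, no trend, a robust variance estimate, median centring, quantile normalization and leaving out each sample.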

Additional observations from a re-analysis of the deposited data

How the results depend on the processing

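No paired analysis was possible because the labels give no replicate numbers shared between the groups. With no filter on low values 181 genes were called higher and 25 lower, 0 of 10 members passed (Tlr2 kept its difference of -0.54), and of the pathway lists together 1 gene was higher and 0 lower, against 6 and 16. Of the other called genes named above Bgn and Lcn2 passed there. The cause was not tested. With a mean rlog of at least 6, 878 genes were higher and Tlr5 was not tested. With a robust variance estimate 3 members passed, Tlr2, Tlr4 (-0.34) and Tlr13 (-0.31). With quantile normalization 10 pathway genes were lower.

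In fits without 1 sample, which borrow the spread of a lone sample from the opposite group, 1008 to 1660 genes were called higher and 324 to 1222 lower. The lowest count of falls came without WT replicate 2 and the highest without DKO replicate 2. Of the members 0 were higher in each such fit and 1 to 4 lower, with 4 without DKO replicate 1 and 3 without WT replicate 2. Of the pathway genes 6 to 8 were higher and 8 to 22 lower. Differences ranged from -0.32 to -0.20 for Tlr1, -0.60 to -0.49 for Tlr2, 0.20 to 0.36 for Tlr3, -0.46 to -0.22 for Tlr4, -0.31 to -0.02 for Tlr5, -0.31 to -0.12 for Tlr6, -0.13 to 0.02 for Tlr7, -0.15 to 0.094 for Tlr8, -0.42 to -0.20 for Tlr13 and -0.15 to -0.06 for Myd88. Tlr7 was above 0 without WT replicate 2 (0.02), Tlr8 without DKO replicate 2 (0.064) and without WT replicate 1 (0.094), and Ly96, which ranged from -0.16 to 0.054, without DKO replicate 2 and without WT replicate 1 (0.03). Median centring, quantile normalization, a mean of at least 6 and the fit without the variance trend changed no call among the members they tested. Quantile normalization moved 4 members by over 1.5 times, Tlr3 to 0.16, Tlr5 to -0.33, Tlr8 to -0.094 and Myd88 to -0.038. With 2 samples a group and unknown depth, small differences such as those of Myd88 and Tlr6 were not resolved.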
